A study of Sus scrofa with 2 samples.

Results

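The genes described here were 7 genes of pancreatic digestive proteases, taken by symbol from the 31908 genes of the count matrices. They were PRSS2, CELA2A, CELA1, CTRC, CTRL, CPA1 and CPB1, and all 7 were found. Single-nucleus RNA sequencing measured them in the pancreas of 1 wild-type Bama pig (WT) and 1 transgenic Bama pig (PIGinH11), with 1 piece of tissue and 1 library from each. The PIGinH11 pig carried human GIPRdn, a dominant-negative receptor for an incretin hormone, hIAPP, the human islet amyloid peptide, and PNPLA3I148M, a variant linked to fatty liver, all inserted at the H11 locus and driven by promoters of the beta cell or the liver, and the WT pig carried none of these. Both pigs were 18 months old and had received control diet until 6 months and then a high-fat and high-sucrose diet (HFHSD) for 12 months, so no animal on control diet alone entered the comparison. With 1 library per group no test between the pigs was possible, and pig, tissue piece and library cannot be told apart. The intervals given are exact 95% Poisson or binomial intervals and cover counting error only.

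Acinar cells make the digestive proteases as inactive zymogens and store them in granules until a meal triggers their release. In the gut, enteropeptidase cuts trypsinogen to trypsin, and trypsin then activates trypsinogen itself, the elastases, the chymotrypsins and the carboxypeptidases. Premature activation inside the gland is a known cause of pancreatitis, which the inhibitor SPINK1 and the trypsin-degrading chymotrypsin C restrain. Zymogen mRNAs are among the most abundant of the gland and leak from broken cells during the preparation of nuclei, so that any droplet can catch them. For this reason each level was set beside that in endothelial and stellate nuclei, cells that do not make these enzymes.

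The WT library held 13619 barcodes with a median of 3216 UMIs (unique molecular identifiers, each counting 1 captured RNA molecule), and the PIGinH11 library held 14964 barcodes with a median of 1181.5. Before filtering, the libraries shared 60 barcodes by sequence. After filtering, 11854 and 13126 nuclei were kept. Clusters were named from marker genes that did not include the proteases, and the names end in "-like" because the files carry no annotation. Acinar-like nuclei numbered 8791 in WT and 9101 in PIGinH11, in 5 clusters that each met all 10 acinar markers, among them RBPJL, a transcription factor of acinar cells. These 10 markers summed to 24097 counts per 1000000 UMIs (CPM) in WT acinar-like nuclei and 22608 in PIGinH11. The ribosomal protein genes took 0.716% of acinar-like UMIs in WT and 0.381% in PIGinH11, and the mitochondrial genes 0.156% and 0.0553%. Both shares moved in the same direction as most of the proteases, and their part in the results was not tested.

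PRSS2 encodes anionic trypsinogen, the zymogen whose active form switches on the others. It lies at chr18:7443327-7446625 of Sscrofa11.1 and overlaps the uncharacterized LOC102167789. In acinar-like nuclei PRSS2 had 48125 CPM in WT, from 1517093 UMIs, and 6723 CPM in PIGinH11, from 104807 UMIs. The WT level was 7.16-fold higher, a log2 ratio of PIGinH11 over WT of -2.84 (interval -2.85 to -2.83), and it was lower in PIGinH11 in each of the 5 acinar clusters. Of the 15956 genes with at least 50 UMIs over both libraries, 0.282% had a lower ratio. By the number of UMIs in acinar-like nuclei, PRSS2 was the gene of rank 1 in WT and of rank 7 in PIGinH11.

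CELA2A and CELA1 encode elastases. CELA2A lies at chr6:74691653-74707598 and overlaps CASP9 and LOC110261100 in RefSeq. It had 4073 CPM in WT and 928.4 CPM in PIGinH11, a log2 ratio of -2.13 (interval -2.16 to -2.11). CASP9 itself had 949 and 737 UMIs in these nuclei, far fewer than the 128403 and 14474 of CELA2A. CELA1, on an unplaced scaffold, was close to equal at 51.7 CPM in WT, from 1631 UMIs, and 45.2 CPM in PIGinH11, from 704 UMIs. Its log2 ratio of -0.20 (interval -0.33 to -0.07) was the smallest difference among the 7 genes, and its direction depended on which acinar nuclei were summed, as described further on.

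CTRC and CTRL encode chymotrypsin-type proteases. Chymotrypsin C also degrades trypsinogen. CTRC had 5709 CPM in WT and 2225 CPM in PIGinH11, a log2 ratio of -1.36 (interval -1.38 to -1.34). RefSeq places CTRC at chr6:74674836-74681311, beside CELA2A, but the identifier that the matrices pair with CTRC, ENSSSCG00000003458, is paired with the neighbouring gene EFHD2 in the gene name table. The values are therefore those of the feature the files call CTRC, and its identity is uncertain.

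CTRL, chymotrypsin-like protease, went the other way. It was nearly unseen in the WT library, with 10 UMIs over all 13619 barcodes, and had 1290 UMIs over 971 barcodes of the PIGinH11 library. In acinar-like nuclei there were 9 UMIs in WT, each in a separate nucleus, and 1056 UMIs in 780 nuclei of PIGinH11, at most 8 in a nucleus. The levels were 0.285 CPM and 67.7 CPM, a log2 ratio of 7.81 (interval 6.96 to 9.02), which only COL11A2 exceeded among the 15956 genes. A CTRL UMI was seen in 0.102% of WT acinar-like nuclei (exact binomial interval 0.0468 to 0.194%) and in 8.57% of those of PIGinH11 (8.00 to 9.16%). In PIGinH11, 2.38% of endothelial-like and 1.90% of stellate-like nuclei also held a UMI, at median depths of 1607 and 1156 UMIs beside 1203 in acinar-like nuclei, whereas none of the 473 WT nuclei of these classes did, which allows a share of up to 0.634%. CTRL lies at chr6:28540187-28542820, within the span of PSKH1 (chr6:28508785-28544063). PSKH1, a kinase gene, had 542 UMIs in WT and 550 in PIGinH11 (log2 ratio 1.04), and PSMB10, an immunoproteasome subunit gene that begins 2090 bases beyond CTRL, had 210 and 825 UMIs (log2 ratio 2.99). Whether reads of these overlapping genes were told apart by strand is not given in the sources used here.

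CPA1 and CPB1 encode carboxypeptidases, which trim residues from the end of a peptide, CPA1 aromatic and aliphatic ones and CPB1 basic ones. CPA1 (chr18:18466564-18482099) had 15551 CPM in WT and 8344 CPM in PIGinH11, a log2 ratio of -0.90 (interval -0.91 to -0.89). CPB1 (chr13:89043822-89088387) had 7135 CPM and 4583 CPM, a log2 ratio of -0.64 (interval -0.65 to -0.63). Both were lower in PIGinH11, by less than the trypsinogen, CELA2A and CTRC. By acinar-like UMIs, CPA1 moved from rank 3 to rank 4 and CPB1 from rank 7 to rank 12, while CTRC moved from rank 10 to rank 28 and CELA2A from rank 15 to rank 92.

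Together the 7 genes had 80645 CPM in WT acinar-like nuclei and 22917 CPM in PIGinH11, a log2 ratio of -1.82 and a 3.52-fold higher level in WT. By a log2 ratio of -1 or less, 3 of the 7 genes were lower in PIGinH11, where 2.83% of the 15956 genes were, and by a ratio of 1 or more, CTRL alone was higher, where 17.3% of genes were. The median ratio of the 7 genes was -0.90, against 0.25 over all 15956 genes. Because the ratio of the median gene with at least 20 UMIs in each library was 0.27, not 0, relative to that gene PRSS2 stood at -3.11, CELA2A at -2.41, CTRC at -1.63, CPA1 at -1.17, CPB1 at -0.91, CELA1 at -0.47 and CTRL at 7.54. On that scale 4 of the 7 genes were lower by 1 or more, where 5.09% of all genes were, and CTRL was higher, where 10.3% were.

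**Figure D1:**
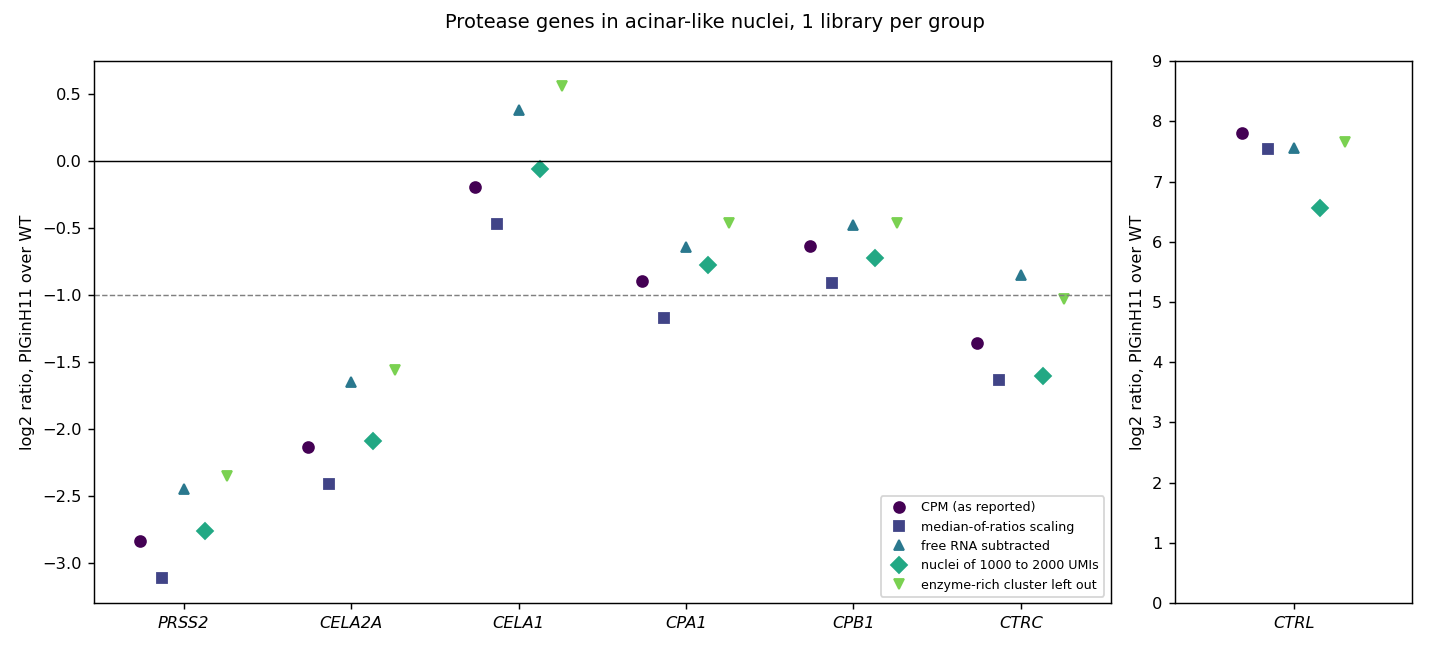
Log2 ratio of PIGinH11 over WT for each protease gene in acinar-like nuclei, with 1 library per group, as reported (circles) and under 4 other settings, with CTRL on an axis of its own. The dashed line marks a ratio of -1, and PRSS2 and CELA2A lie below it in every setting drawn while CELA1 lies on both sides of 0.

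Outside acinar-like nuclei the same genes were seen in every class. In WT, the 7 genes summed to 289.2 UMIs per nucleus in acinar-like nuclei, and to between 93.0 (delta-like) and 139.7 (stellate-like) in the 11 other named classes, whose median depths ran from 2376 to 4212.5 UMIs. In PIGinH11 they summed to 39.3 UMIs per nucleus in acinar-like nuclei, and to between 6.38 (ductal-like) and 14.1 (lymphocyte-like) elsewhere. The number of protease UMIs per nucleus thus varied 1.50-fold over the non-acinar classes of WT and 2.21-fold over those of PIGinH11. For PRSS2 the range over these 11 classes was 60.7 to 90.1 UMIs per nucleus in WT and 2.55 to 5.20 in PIGinH11, beside 172.6 and 11.5 in acinar-like nuclei.

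**Figure D2:**
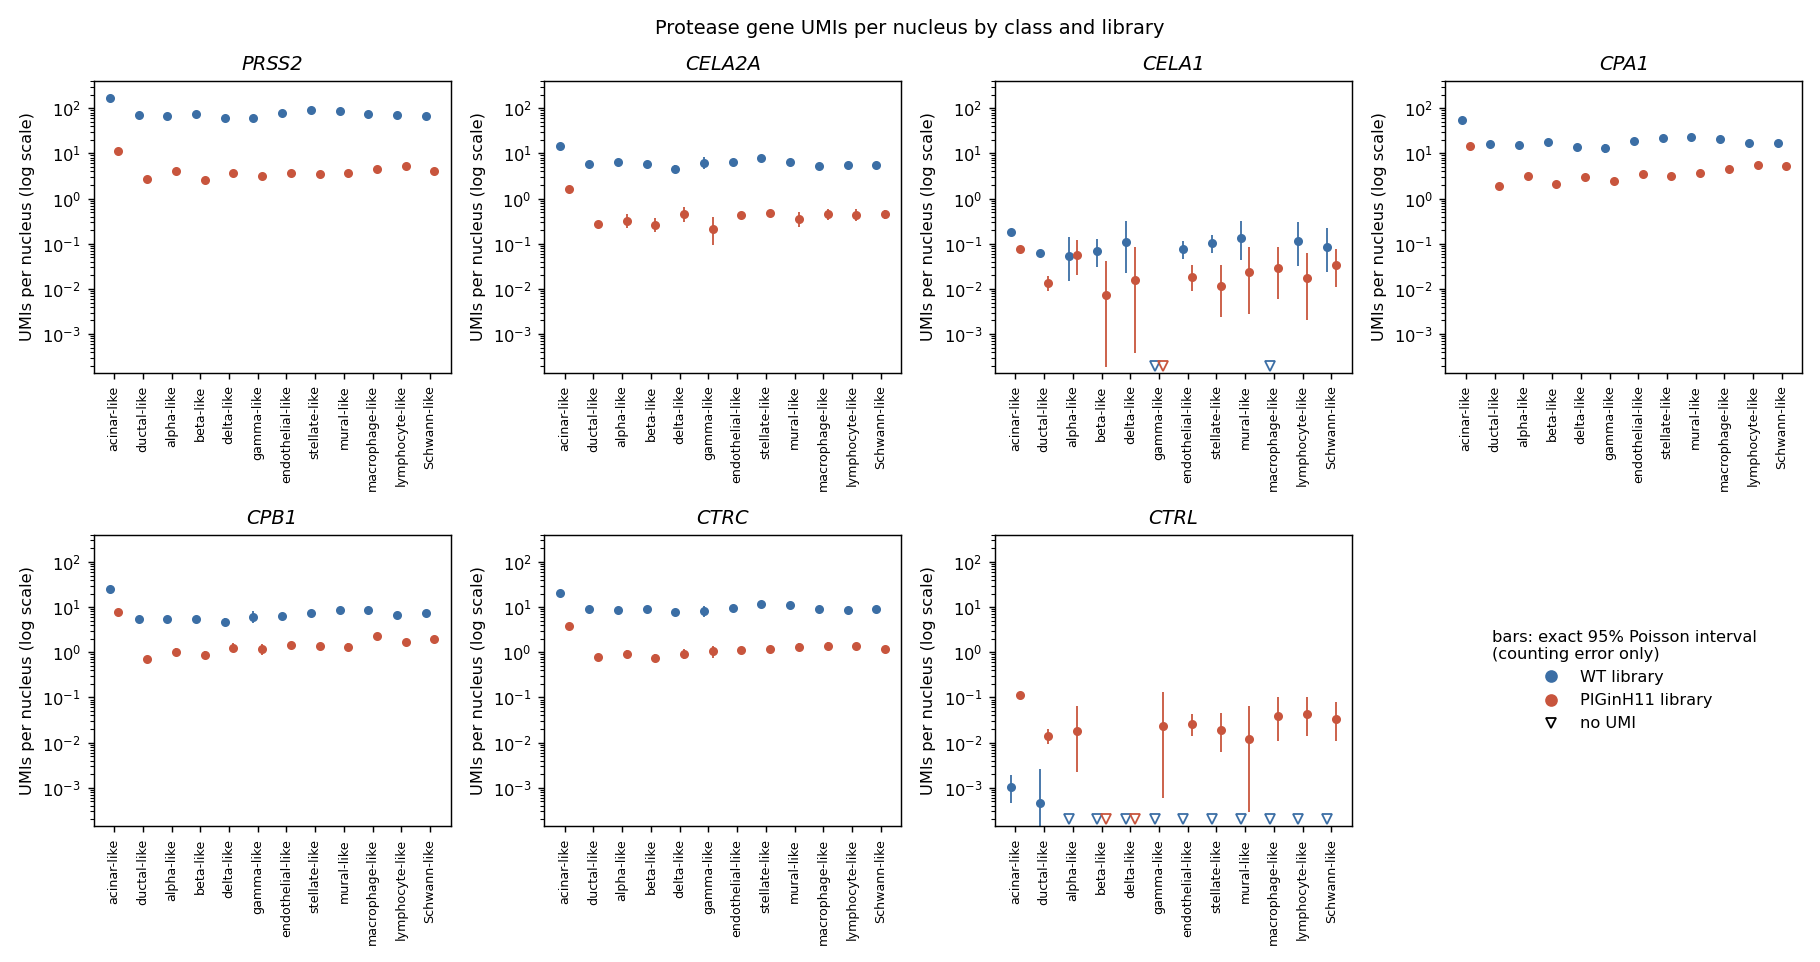
UMIs per nucleus (log scale) of each protease gene in 12 named classes of the WT and PIGinH11 libraries, with exact 95% Poisson intervals and open triangles for classes without a UMI. Apart from CTRL, the WT points lie above the PIGinH11 points in acinar-like nuclei, and the non-acinar classes of a library lie below its acinar-like nuclei for each gene, within 1.81-fold of each other in WT and 3.22-fold in PIGinH11 for the 5 genes other than CELA1 and CTRL.

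Pooled endothelial-like and stellate-like nuclei (473 in WT, 809 in PIGinH11) gave the level read as free RNA. In WT this level was 44.0% of the acinar-like level per nucleus for the sum of the 7 genes (interval 43.6 to 44.3%), and in PIGinH11 it was 25.7% (25.2 to 26.3%). By gene, the WT share was 50.9% for CTRC, 48.2% for CELA2A, 47.9% for PRSS2, 46.7% for CELA1, 36.0% for CPA1 and 26.8% for CPB1. In PIGinH11 the shares were 30.4% for CTRC, 27.8% for CELA2A, 31.7% for PRSS2, 20.8% for CELA1, 23.4% for CPA1, 18.4% for CPB1 and 20.2% for CTRL. CPB1 thus had the lowest share in both libraries, leaving out CTRL in WT, which had no UMI in these classes. The sum of the 10 acinar markers, none of them a listed digestive enzyme, went the other way, with 13.3% in WT and 22.6% in PIGinH11.

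The free level itself was lower in PIGinH11 for all genes but CTRL. PRSS2 had 19624 CPM in WT and 1635 CPM in PIGinH11 endothelial-like nuclei (log2 ratio -3.58), and 23921 and 1958 CPM in stellate-like nuclei (-3.61). In endothelial-like nuclei 5 of the 7 genes reached 50 UMIs and all 5 were lower by a ratio of -1 or less, beside 2.87% of all genes there. In stellate-like nuclei 5 of 5 were lower, beside 3.90% of genes, and in ductal-like nuclei 5 of 6 were lower, beside 2.82% of genes. In endocrine-like nuclei 4 of 5 were lower, beside 2.25% of genes, with CPB1 at -0.51. The endocrine-like nuclei without a hormone name gave 856 of the 1217 PIGinH11 CPB1 UMIs and had a CPB1 ratio of -0.08, whereas the ratio of the named types was -0.96 (gamma-like), -1.53 (delta-like), -1.72 (alpha-like) and -1.92 (beta-like). None of the 7 genes that reached the minimum was higher by 1 or more in these classes, where 4.63% of genes were in endothelial-like, 3.90% in stellate-like, 10.6% in ductal-like and 5.39% in endocrine-like nuclei. In ductal-like nuclei PRSS2 had a ratio of -3.34, CELA2A -3.02, CTRC -2.10, CPA1 -1.69, CPB1 -1.57 and CELA1 -0.79. These ratios were more negative than those of the same genes in acinar-like nuclei.

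When the free level per nucleus was subtracted from the acinar-like level, the log2 ratio was -2.45 for PRSS2, -1.65 for CELA2A, -0.85 for CTRC, -0.64 for CPA1, -0.48 for CPB1 and 7.56 for CTRL. CELA1 changed sign, to 0.38. For the sum of the 7 genes the ratio was -1.41, with 45172 CPM left in WT and 17025 CPM in PIGinH11. After subtraction 2 of the 7 genes, PRSS2 and CELA2A, were lower by 1 or more. The free level was not matched to depth. It came from WT nuclei with a median of 3648 UMIs, whereas WT acinar clusters 2 and 3 had medians of 1523 and 1626. In those clusters PRSS2 and CELA2A came out negative after subtraction, and these nuclei entered the ratios above.

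The acinar-like nuclei were not alike. Cluster 7, an enzyme-rich group of 659 WT and 473 PIGinH11 nuclei, had CELA2A, CPA1, PRSS2, CELA1, SYCN (a zymogen granule protein) and CEL (bile-salt lipase) among its 10 leading genes. Since the proteases led it, its level is a description. It held 1717 UMIs of the 7 genes per nucleus in WT and 143.3 in PIGinH11. In WT it made up 7.50% of acinar-like nuclei and held 44.5% of their protease UMIs, and in PIGinH11 it made up 5.20% and held 19.0%. Ribosomal protein genes took 2.10% of its UMIs in WT and 0.984% in PIGinH11. For PRSS2 the WT cluster held 1125 UMIs per nucleus, 13.6-fold over the free level, and the PIGinH11 cluster 57.8, 15.8-fold over it.

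In WT clusters 2 and 3 PRSS2, CELA2A and CTRC stood near or below the level of free RNA. In WT cluster 2, at a median of 1523 UMIs, PRSS2 had 69.2 UMIs per nucleus, 0.837 times the free level (interval 0.828 to 0.847), CELA2A 0.760 times and CTRC 0.870 times. In WT cluster 3, at a median of 1626 UMIs, PRSS2 stood at 0.968 times the free level, CELA2A at 0.882 times and CTRC at 1.02 times (interval 0.992 to 1.06). Per nucleus these values did not clearly exceed the free level, which came from nuclei with a median of 3648 UMIs. In CPM they did, with PRSS2 at 37750 and 41203 in clusters 2 and 3 beside 21355 in free RNA. CELA2A had 2921 and 3199 CPM beside 1819, and CTRC 4948 and 5494 beside 2693. Whether the free level per nucleus is the same at these depths was not tested, so the values are not read as expression. In the same nuclei CPB1 stood at 1.71 times the free level in cluster 2 and 1.74 times in cluster 3, and CPA1 at 1.21 and 1.34 times. In WT clusters 1 and 4, whose median depths were 4257 and 4633 UMIs, CPB1 stood at 4.67 and 3.68 times the free level per nucleus. CPA1 stood at 2.28 times in both, CTRC at 1.52 and 1.53, PRSS2 at 1.29 and 1.49, and CELA2A at 1.17 and 1.21 times. In CPM PRSS2 had 22877 and 25020 there beside 21355 in free RNA, and CTRC 3414 and 3250 beside 2693. CELA2A, with 1769 and 1738 CPM beside 1819, lay below free RNA. CPA1 and CPB1 lay above free RNA in CPM as well. Cluster 4 had HSP70.2, which encodes a stress-induced chaperone, among its 10 leading genes.

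In PIGinH11 the 5 genes with many UMIs stood above the free level in every acinar cluster. PRSS2 was 3.57-fold over it in cluster 1, 1.78-fold in cluster 2, 1.70-fold in cluster 3 and 2.92-fold in cluster 4. CPB1 was 9.85-fold over it in cluster 1 and 5.81-fold in cluster 4. CTRL was 7.90-fold over it in cluster 1 (interval 5.00 to 13.2) and 3.40-fold in cluster 3 (2.11 to 5.78). In clusters 2 and 3 no fold between the pigs could be formed for PRSS2 and CELA2A after subtraction. There the WT level per nucleus was below the free level, which came from deeper nuclei, although it was above that level in CPM. In cluster 1, after subtraction, the ratio was -0.57 for PRSS2, 1.09 for CELA2A, 0.32 for CTRC, 0.12 for CPA1 and -0.21 for CPB1. In cluster 7 it was -3.29 for PRSS2, -2.52 for CELA2A, -1.71 for CTRC, -1.80 for CPA1 and -1.37 for CPB1. Without subtraction, the median gene had a ratio of 0.92 in cluster 7 and 0.09 in cluster 1, and the values here are not relative to it. For the sum of the 7 genes the ratio after subtraction was -0.11 in cluster 1, -0.31 in cluster 4, 1.11 in cluster 3 and -2.60 in cluster 7. The value in cluster 3 rests on 8.66 of 135.9 UMIs per nucleus left in WT, with PRSS2 and CELA2A negative there. Without subtraction the ratio of the sum in cluster 3 was -1.85. In cluster 2 the WT sum was below the free level, and no ratio could be formed. After subtraction CELA2A, CTRC and CPA1 were thus lower in PIGinH11 in cluster 7 and not in cluster 1, nor in cluster 4, where their ratios were 0.70, 0.32 and 0.17. Of CELA2A little was left in WT to form such a ratio, with 8.23 UMIs per nucleus in WT cluster 1 beside 7.96 in WT stellate-like nuclei. Of CPA1 25.6 of 45.7 UMIs per nucleus were left in WT cluster 1, and of CTRC 5.46 of 15.9.

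**Figure D3:**
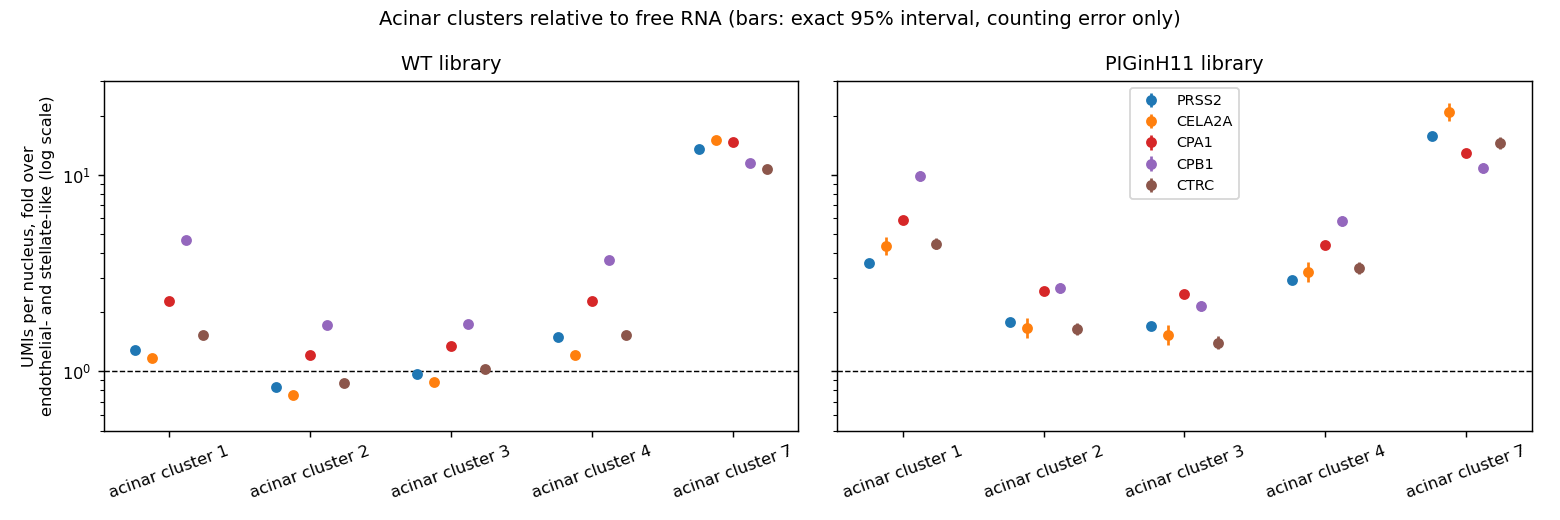
UMIs per nucleus of 5 protease genes in each acinar cluster, as a fold over endothelial-like and stellate-like nuclei of the same library (log scale), with exact 95% intervals. The dashed line is the free level, at or below which PRSS2 and CELA2A lie in WT clusters 2 and 3, while every PIGinH11 point lies above it and cluster 7 lies above 10-fold in both libraries.

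CELA1 was the gene whose direction depended most on the nuclei taken. Its log2 ratio was 0.66 in cluster 1 (interval 0.43 to 0.89), from 314 UMIs in WT and 294 in PIGinH11, and 1.10 in cluster 4 (0.73 to 1.45), from 185 and 101 UMIs. It was -0.56 in cluster 3 (-1.06 to -0.10) and -1.18 in cluster 7 (-1.45 to -0.93), and in cluster 2 the interval held 0. With cluster 7 left out, an alternative chosen after seeing the data, the acinar-like ratio of CELA1 was 0.56, that of the sum of the 7 genes was -1.32, and the free level was 73.3% of the acinar-like level in WT and 30.1% in PIGinH11. Without that cluster PRSS2 stood at -2.35 and CELA2A at -1.56.

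The make-up of the protease UMIs differed between the pigs and between acinar-like nuclei and free RNA. These are shares of UMIs and not levels per length of gene. In WT acinar-like nuclei PRSS2 gave 59.7% of the UMIs of the 7 genes, CPA1 19.3%, CPB1 8.85%, CTRC 7.08% and CELA2A 5.05%. In PIGinH11 CPA1 gave 36.4%, PRSS2 29.3%, CPB1 20.0%, CTRC 9.71% and CELA2A 4.05%. In WT free RNA held 65.0% PRSS2 (64.6 to 65.4%) and 5.39% CPB1 (5.21 to 5.58%), and in PIGinH11 36.2% PRSS2 (35.2 to 37.3%) and 14.3% CPB1 (13.6 to 15.1%). These intervals do not cover the spread between nuclei or between classes. Ductal-like nuclei were near free RNA in WT, with 65.8% PRSS2 and 5.21% CPB1, and so were beta-like nuclei, with 66.3% and 4.62%. In PIGinH11 ductal-like nuclei had 41.5% PRSS2 (40.7 to 42.3%) and 11.2% CPB1, and beta-like nuclei had 38.9% and 13.4%. Over the named non-acinar classes of PIGinH11 the PRSS2 share ran from 31.9% (Schwann-like) to 42.4% (alpha-like). Cluster 7 had 65.5% PRSS2 and 4.60% CPB1 in WT, and 40.3% and 10.9% in PIGinH11. Cluster 1 stood at the other end in both libraries, with 51.1% PRSS2 and 15.4% CPB1 in WT and 24.0% and 26.2% in PIGinH11.

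**Figure D4:**
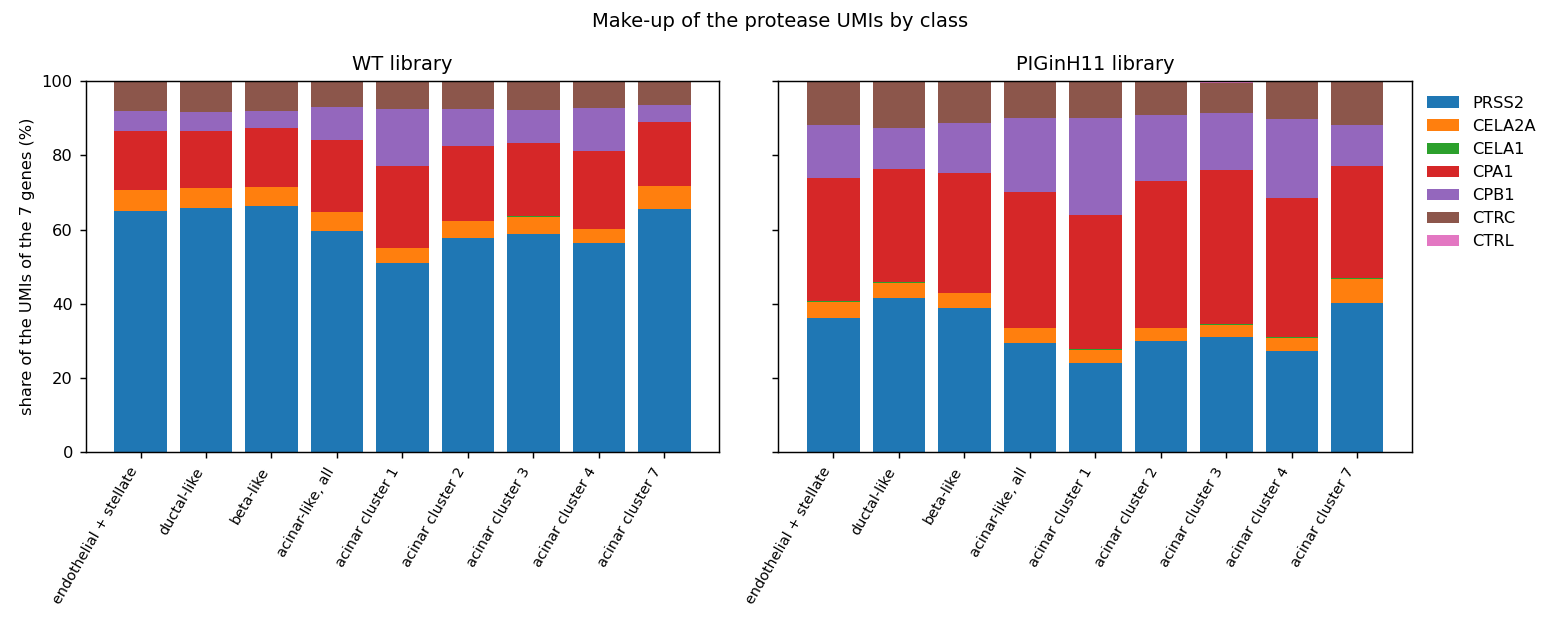
Share (%) of each gene in the UMIs of the 7 protease genes, in pooled endothelial-like and stellate-like, ductal-like, beta-like and acinar-like nuclei and in each acinar cluster, for the WT and PIGinH11 libraries. In the 9 bars drawn for each library PRSS2 (blue) holds from 51.1 to 66.3% in WT and from 24.0 to 41.5% in PIGinH11, and CPB1 (purple) is widest in acinar cluster 1 of both libraries.

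Over single acinar-like nuclei the UMIs were concentrated. The median WT nucleus held 81 PRSS2 UMIs, the quartiles were 59 and 114, and the highest held 6165, and the 5% of nuclei richest in PRSS2 held 42.2% of its UMIs. The median PIGinH11 nucleus held 7 PRSS2 UMIs, the quartiles were 4 and 12, and the highest held 660, and the richest 5% held 33.3%. In raw UMIs the 5th percentile was 36 in WT and the 95th percentile 29 in PIGinH11, at median depths of 2876 and 1203 UMIs. The WT median of 81 was close to the WT free level of 82.7 PRSS2 UMIs per nucleus. The PIGinH11 median of 7 stood beside a free level of 3.66. PRSS2 took a median of 3.05% of the UMIs of a WT nucleus and 0.541% in PIGinH11. For CPB1 the raw ranges overlapped, with medians of 15 and 4 and upper quartiles of 31 and 9. As a share of the UMIs of a nucleus, the 7 genes took a median of 5.52% in WT and 1.99% in PIGinH11. CELA1 and CTRL were at 0 in the median nucleus of both libraries.

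**Figure D5:**
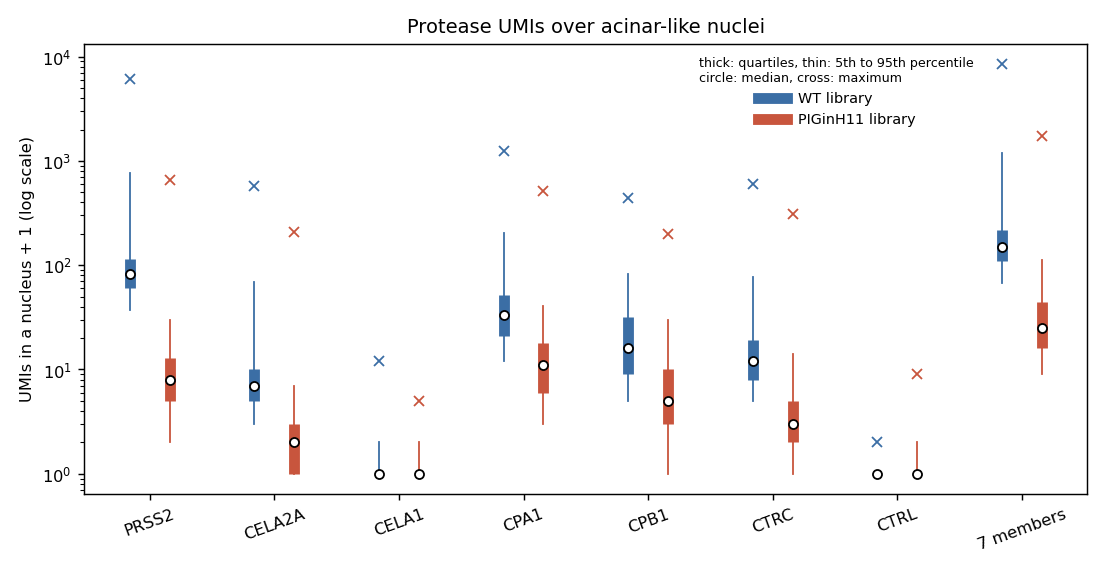
UMIs in a nucleus plus 1 (log scale) over acinar-like nuclei of both pigs, WT in blue and PIGinH11 in red, with medians (circles), quartiles (thick bars), 5th to 95th percentiles (thin lines) and maxima (crosses). The PRSS2 medians are 81 and 7 UMIs, and the WT bars carry long upper tails.

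Depth differed between the libraries, so nuclei of like depth were compared. In nuclei of 500 to 1000 UMIs (887 WT, 3585 PIGinH11) the ratio was -3.32 for PRSS2, -2.89 for CELA2A, -2.25 for CTRC, -1.20 for CPA1 and -1.34 for CPB1. In nuclei of 4000 to 13000 UMIs (3085 WT, 696 PIGinH11) it was -2.55, -1.62, -0.91, -0.84 and -0.28 for the same genes. Between these ends there was no steady course, since PRSS2 stood at -2.76 in nuclei of 1000 to 2000 UMIs and at -3.24 in those of 2000 to 4000, and CPA1 at -0.78 and -1.14. All 5 genes were lower in PIGinH11 in each of the 4 depth ranges, but free RNA was not subtracted here. WT nuclei of 500 to 1000 UMIs held 46835 PRSS2 UMIs over 887 nuclei, and those of 1000 to 2000 held 138833 over 2057. Both were fewer per nucleus than the WT free level of 82.7. In pooled endothelial-like and stellate-like nuclei the PRSS2 ratio was -3.63. The part of free RNA in these depth ranges was not tested. CELA1 ranged from -0.60 to 0.07 over the 4 depth ranges. CTRL had 0, 2, 2 and 5 WT UMIs in the 4 ranges from shallow to deep, beside 184, 344, 301 and 227 in PIGinH11.

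Within the WT library the proteases varied together over acinar-like nuclei thinned to 500 UMIs each. Over 8791 nuclei, Pearson's r of log counts was 0.72 between PRSS2 and CPA1, 0.69 between PRSS2 and CELA2A and 0.66 between PRSS2 and CTRC, but 0.34 between PRSS2 and CPB1 and 0.30 between CPA1 and CPB1. Against RBPJL and 2 other acinar markers, EFEMP1 and KCNMA1, PRSS2 had r of -0.17, -0.28 and -0.36. The nuclei share a library and a fixed total, so that more UMIs of a gene leave fewer for others. They also share free RNA, and the r values pool all acinar clusters. WT cluster 7, with 7.50% of these nuclei, held 48.9% of the PRSS2 UMIs and 54.6% of those of CELA2A. The part of free RNA and of this cluster in the r values was not tested. In PIGinH11, over 9101 nuclei, r was 0.25 between PRSS2 and CPA1, 0.22 between PRSS2 and CELA2A, 0.20 between PRSS2 and CTRC and -0.00123 between PRSS2 and CPB1. The thinned counts behind them were 30547 UMIs of PRSS2 and 38568 of CPA1, beside 223246 and 71034 in WT, and the difference in r between the pigs was not tested.

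Over the 24 points formed by 12 named classes and both libraries, which share libraries and free RNA, the genes with a pattern most like the mean of the 7 members were CLPS (colipase, r = 0.97), PLA2G1B (pancreatic phospholipase A2, 0.96), RPS15 (a ribosomal protein, 0.94), RN18S (18S ribosomal RNA, 0.93) and MT1A (a metallothionein, 0.92), out of 8889 genes. Among the members r with their own mean was at least 0.90 except for CELA1 (0.68) and CTRL (-0.13). Each member is itself part of that mean, so its r is not comparable with those of the outside genes.

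Other genes of the pathway did not move as a block in acinar-like nuclei, where 2.83% of all genes were lower and 17.3% higher by 1 or more. Of 12 other proteases listed, 4 were named in the matrices and 2 reached 50 UMIs. The symbols PRSS1, PRSS3, CTRB1, CTRB2, CELA2B, CELA3A, CELA3B and CPA3 were absent. KLK1, tissue kallikrein, had 513.5 CPM in WT and 115.3 in PIGinH11 (log2 ratio -2.15). TMPRSS15, enteropeptidase, which acts in the gut, had 129 and 141 UMIs (1.14). Trypsin-2 has close paralogs whose symbols are not among those used here, so reads that could fit several copies make its count uncertain. Of 10 genes that restrain or activate trypsin 8 reached the minimum, none was lower by 1 and 2 were higher. SPINK1, the trypsin inhibitor, had 668.1 CPM in WT and 617.0 in PIGinH11 (-0.11), SERPINI2 had a ratio of -0.63, SERPINA1 -0.31, SERPINB6 1.19 and A2M 1.62, the last from 34 and 52 UMIs. Of 21 other secretory proteins 13 were measured, 2 were lower by 1 and 5 higher. TFF2, a mucosal trefoil peptide, had a ratio of -1.71 and PLA2G1B -1.20, whereas RNASE4, a ribonuclease, had 1.74 and PNLIPRP1, a lipase-related protein, had 7047 CPM in WT and 19302 in PIGinH11 (1.45). Of 10 acinar regulators 1 was lower by 1, XBP1 (-1.07), which drives the secretory machinery of the endoplasmic reticulum. CCKAR, the cholecystokinin receptor that triggers secretion, had a ratio of -0.75, and the transcription factor genes RBPJL and PTF1A, which act on the protease promoters, had 0.52 and 0.64. The list medians were -0.51, 0.02, -0.06 and 0.09 in the order given, against 0.25 over all genes, and the first rests on only 2 genes.

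The genes beside the proteases on the chromosomes gave different ratios. AGTR1, the angiotensin receptor gene that lies 63505 bases from CPB1, had 4728 acinar-like UMIs in WT and 311 in PIGinH11 (-2.91). DNAJC16, beyond CASP9 and CELA2A, had a ratio of -0.14, and CEP41, 3985 bases from CPA1, had -0.45. AGMAT had -0.19 and MEST -0.10. The other neighbours with at least 50 UMIs over both libraries, members left out, had positive ratios. They were GYG1 (0.86), FHAD1 (0.81), CASP9 (0.65), COPG2 (0.51), EPHB6 (0.25), TMEM51 (0.21), HLTF (0.09) and CPA4 (0.08). Beside CTRL, PSKH1, PSMB10 and SLC12A4 had 1.04, 2.99 and 1.53.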

How the data were processed

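Nuclei of 1 WT and 1 PIGinH11 pancreas were profiled on the 10x Genomics platform. The authors aligned reads to Sscrofa11.1 and deposited raw UMI counts per gene and barcode (Cell Ranger 3.1.0 per the submitters' processing notes, 5.0.0 per the file headers). The methods do not state whether intronic reads were counted, but the paper reports a larger share of reads mapped to the transcriptome than to exons in both libraries. Groups came from the sample labels.

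Barcodes with 270 to 3700 genes, at most 13000 UMIs and at most 10% mitochondrial UMIs were kept. The methods print a limit of 1300 UMIs, run as an alternative. Scrublet (scanpy 1.11.5) scored doublets, and the top 10.9% (WT) and 12.0% (PIGinH11) were removed. On 2000 variable genes without the proteases, other listed secretory genes, ribosomal protein or mitochondrial genes, 30 principal components were adjusted with Harmony and clustered by Louvain (igraph 0.11.9, 20 neighbours, resolution 1). Clusters were named from fixed marker lists.

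Counts were summed per class and library and given as CPM. Log2 ratios had 0.5 UMIs added to each sum, with exact conditional binomial intervals (scipy 1.17.1). Genes needed 50 UMIs over both libraries, and free RNA was taken as the mean UMI number of a nucleus over the endothelial-like and stellate-like classes. Ratio intervals were tested on simulated Poisson sums only, which hold no spread between nuclei. The named genes were the 7 members, the 2 lowest and 2 highest of each list and SPINK1, and the 5 genes most alike. Chromosomal neighbours of the members were named after their values were seen, and coordinates are those of RefSeq for Sscrofa11.1. The members and lists were chosen with earlier results of these data known.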

Additional observations from a re-analysis of the deposited data

Results flagged for a closer look

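CELA1 had a log2 ratio of PIGinH11 over WT of 0.66 in acinar cluster 1 and of 1.10 in acinar cluster 4, opposite in sign to the -0.20 of acinar-like nuclei as a whole, with counting intervals on opposite sides of 0. The difference between the clusters and the whole was not tested, since each pig is 1 library. In WT the CELA1 level was 1.41 times the free level in cluster 1 (interval 1.01 to 2.00) and 1.16 times in cluster 4 (0.824 to 1.67), and in PIGinH11 it was 7.04 and 5.28 times.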

How the results depend on the processing

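The sum of the 7 genes was lower in PIGinH11 acinar-like nuclei under all 13 alternatives run, from -2.21 to -1.32 on the log2 scale, and so were PRSS2, CELA2A, CTRC, CPA1 and CPB1, while CTRL was higher in all 13. The ratio of the sum was -1.50 with no doublet removal, -2.21 with a limit of 1300 UMIs, -1.69 with at least 500 genes, -1.47 with no Harmony, -1.49 with the secretory genes kept for clustering, -1.94 as a mean over nuclei, -1.93 thinned to 500 UMIs, -1.89 with secretory, ribosomal protein and mitochondrial genes out of the denominator, -2.09 with median-of-ratios scaling, -1.41 with free RNA subtracted, -1.78 in nuclei of 1000 to 2000 UMIs and -1.32 without enzyme-rich cluster 7. Subtracting free RNA and leaving out cluster 7 were not run together, so these alternatives do not give the direction under both changes. After subtraction within single clusters, the ratio of the sum was -0.11 in cluster 1, -0.31 in cluster 4 and -2.60 in cluster 7. In cluster 3 it was 1.11, from a small WT remainder, and in cluster 2 no ratio could be formed. The number of genes lower by 1 or more was 5 with the limit of 1300 UMIs and 2 to 4 elsewhere. The free level as a share of the acinar-like level was, in WT and PIGinH11, 63.9% and 31.6% with no doublet removal, 93.9% and 61.6% with the limit of 1300 UMIs, 50.1% and 23.6% with at least 500 genes, 60.1% and 26.7% with no Harmony, 46.2% and 33.8% thinned, 48.3% and 24.8% from stellate-like nuclei only, and 73.3% and 30.1% without cluster 7. In WT it was also 60.1% with the secretory genes kept and 40.9% from endothelial-like nuclei only. CELA1 changed sign to 0.19 with no doublet removal, 0.21 with no Harmony, 0.20 with the secretory genes kept, 0.38 with free RNA subtracted and 0.56 without cluster 7. Of the 1132 nuclei of cluster 7, 48.9% were still acinar-like with no doublet removal, 67.5% with no Harmony and 64.5% with the secretory genes kept, most of the others falling in an unnamed cluster. The cause of the moves, and the part of cluster 7 in them, was not tested. Counting unnamed enzyme-rich clusters as acinar-like was not run, since every cluster of the reported clustering was named. No paired analysis was possible because each group has 1 library. Counts limit CTRL, with 9 acinar-like UMIs in WT, and CELA1, with 704 in PIGinH11.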

Other observations

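The endocrine-like nuclei that met no hormone's markers, 42 in WT and 225 in PIGinH11, also carried acinar markers. Of their 4 subclusters, 3, of 163, 34 and 26 nuclei, met 7, 8 and 9 of the 10 acinar markers, RBPJL among them. The other, of 44 nuclei, met 2 of 11 stellate markers. Here a marker was met relative to other endocrine-like subclusters, whereas the acinar clusters met theirs relative to all other classes. These unnamed endocrine-like nuclei held more protease UMIs than the named non-acinar classes, and the part of the acinar markers in this was not tested. The 7 genes summed to 161.6 UMIs per nucleus in WT and 19.9 in PIGinH11, which was 1.27 and 1.97 times the free level, at median depths of 1924 and 788 UMIs. PRSS2 took 98.7 of these UMIs per nucleus in WT.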
